A study of Homo sapiens with 6 samples.

Results

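The sterol arm of cholesterol synthesis was followed here at the level of its transcripts, through 9 genes taken by symbol in pathway order from a count table of 20610 genes: SQLE, LSS, CYP51A1, TM7SF2, MSMO1, NSDHL, EBP, SC5D and DHCR7. All 9 symbols were found in the table and all 9 passed the filter on low counts. The data are polyadenylated RNA from HT1080, an established human fibrosarcoma line, in 3 libraries of PGK1 knockout (KO) cells and 3 of wild-type (WT) cells that share a batch label. PGK1, the glycolytic enzyme phosphoglycerate kinase, was disrupted with CRISPR-Cas9. The labels give no guide, no clone, no pooling and no statement that libraries of a group are separate cultures, so the tests below compare these libraries, whose spread may be technical.

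The sterol arm turns the linear hydrocarbon squalene into cholesterol in the membrane of the endoplasmic reticulum. Squalene is first oxidised and closed into lanosterol, which then loses methyl groups and has its double bonds moved and reduced. Its genes are classical targets of SREBP2, a transcription factor that is activated when sterols are low. The late intermediate 7-dehydrocholesterol can take up lipid radicals and has been tied to resistance against ferroptosis, the iron-dependent death by lipid peroxidation that the series is about. EBP and SC5D lead to this intermediate and DHCR7 uses it up.

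Promoter sequence was taken from RefSeq (GRCh38.p14) for 8 members, in 10 windows of 300 bases that run from 250 bases before to 50 bases after an annotated start. SQLE is not shown. The stretches of 250 bases before the start are printed for MSMO1, the member that fell furthest, for EBP, and for NSDHL and TM7SF2, the members that moved least. They read 5′ to 3′ on the plus strand at chr4:165327419-165327668 (MSMO1), chrX:48521558-48521807 (EBP), chrX:152830813-152831062 (NSDHL) and chr11:65111622-65111871 (TM7SF2). Capitals mark the CCAAT box, the letters read by the factor NF-Y, on either strand.

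MSMO1: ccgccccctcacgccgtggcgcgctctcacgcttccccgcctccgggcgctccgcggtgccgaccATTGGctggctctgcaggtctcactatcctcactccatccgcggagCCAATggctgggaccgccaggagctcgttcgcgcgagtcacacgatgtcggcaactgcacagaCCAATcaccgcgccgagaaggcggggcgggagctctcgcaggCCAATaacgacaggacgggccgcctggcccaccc

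EBP: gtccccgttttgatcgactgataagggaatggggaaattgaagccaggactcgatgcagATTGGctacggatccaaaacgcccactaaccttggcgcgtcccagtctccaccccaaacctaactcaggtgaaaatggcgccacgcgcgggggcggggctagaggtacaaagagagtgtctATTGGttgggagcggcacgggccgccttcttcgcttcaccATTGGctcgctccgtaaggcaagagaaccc

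NSDHL: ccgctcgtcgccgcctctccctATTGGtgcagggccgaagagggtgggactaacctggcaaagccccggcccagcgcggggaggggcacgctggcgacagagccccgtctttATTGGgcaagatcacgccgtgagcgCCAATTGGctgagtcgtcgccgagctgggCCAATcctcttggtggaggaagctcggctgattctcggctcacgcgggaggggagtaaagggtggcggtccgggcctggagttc

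TM7SF2: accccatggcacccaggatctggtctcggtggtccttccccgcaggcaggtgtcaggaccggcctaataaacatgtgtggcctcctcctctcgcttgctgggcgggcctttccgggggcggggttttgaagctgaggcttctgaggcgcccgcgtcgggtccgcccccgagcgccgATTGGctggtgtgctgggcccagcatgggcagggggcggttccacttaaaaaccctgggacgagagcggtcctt

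The CCAAT box occurred 4 times before MSMO1, 3 times before EBP, 5 times before NSDHL and 1 time before TM7SF2, with a match on each strand that shares letters in NSDHL. Whether the number of boxes goes with the size of the fall was not tested. The box was in 8 of the 10 member windows and in 34.6% of all 35116 promoter windows, and CYP51A1 was the member without it in any window. SC5D and DHCR7 have 2 windows each, and those of SC5D overlap. The GC box GGGCGG was also in 8 of the 10 member windows, with none in NSDHL, and in 45% of all windows. A sterol regulatory element written as TCACNCCAC, searched on both strands like the others, was in none of the 10 member windows and in 1.13% of all windows. Only this exact pattern was searched, so variants of the element were not counted and their presence was not tested. These matches describe letters in the window and say nothing of binding.

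The library totals ran from 30175903 to 43890830 counts in KO and from 39150295 to 47047186 in WT. Levels are CPM (counts relative to the library total, scaled by TMM factors), or the authors' FPKM where genes are compared with each other, and group values are means ± SD over 3 libraries. PGK1 itself had 149, 151 and 165 CPM in the KO libraries, against 1447, 1428 and 1407 CPM in the WT libraries. Libraries of a group correlated at 0.984 to 0.992 in log2 CPM, and KO library 3 stood furthest from its group. Of 13249 genes tested with edgeR's quasi-likelihood test, 36.3% were called lower in KO and 40.0% higher at an adjusted p under 0.05, so a call alone is common in these data. Of the called genes 52.4% were higher with TMM scaling and 63.6% with library size alone, which shifts the median log2 fold change of all genes to 0.28, against 0.05 with TMM.

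The mesenchymal markers VIM, FN1, CDH2 and COL6A1 were present in every library and lower in all KO libraries, whereas THY1 had at most 2 counts in any library. The summed level of these 5 markers was 2560 to 3041 CPM in KO and 11360 to 11850 CPM in WT. Of 5 epithelial markers, CDH1 and ESRP1 were higher in KO, CLDN4 was lower and EPCAM was at 0 in all 6 libraries, and their sum was 4.20 to 5.07 CPM in KO and 1.42 to 2.53 CPM in WT. The 4 markers of white blood cells summed to 0.603 to 0.913 CPM in KO and 0.481 to 0.552 CPM in WT. These shifts accompanied the sterol changes below, and their part in them was not tested. In bulk RNA a smaller number of expressing cells cannot be told apart from less RNA per cell.

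The sterol arm was lower in KO at 8 of its 9 genes, where 36.3% of all tested genes were called lower, and the fall differed widely between steps. The 9 genes together held 0.0531 ± 0.00105% of all counts in KO and 0.214 ± 0.00389% in WT. Their median log2 fold change was -1.88, beside 0.05 over all genes tested. TM7SF2 alone was not called. At least 2-fold lower were 7 of the 9, which 15.5% of all tested genes also were, and all KO libraries lay below all WT libraries for 8 of the 9, as for 38.0% of tested genes. The plot of levels by library shows these separations.

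**Figure D1:**
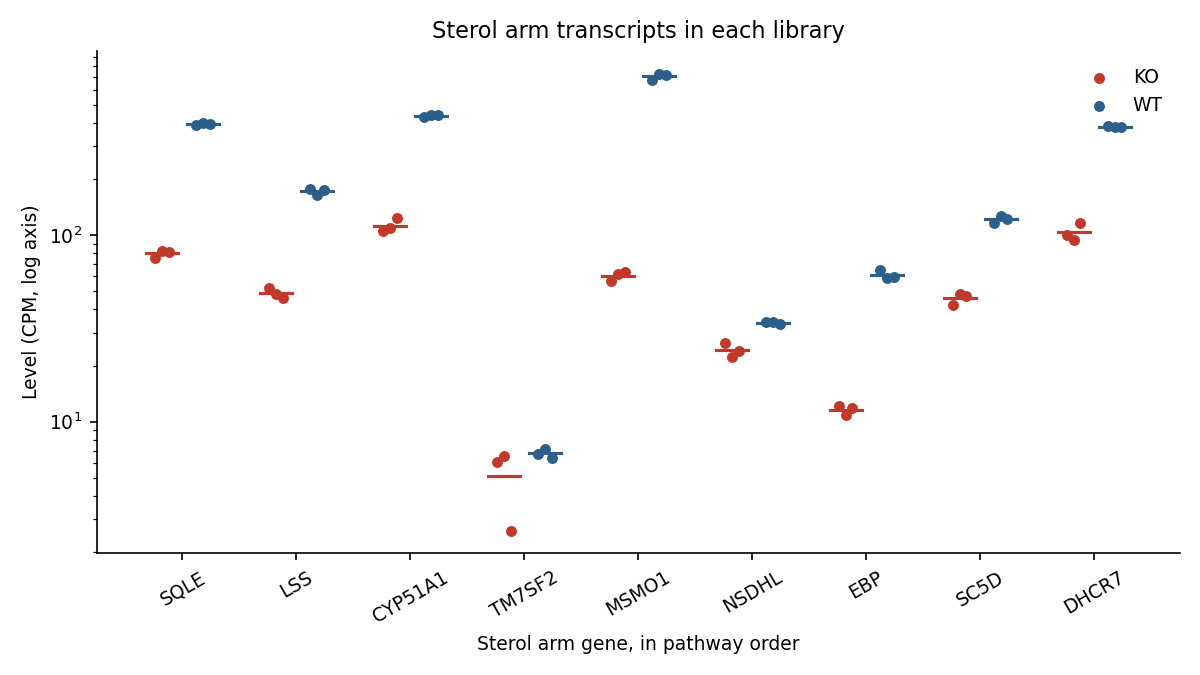
Level of each sterol arm gene in CPM on a log axis, in pathway order, with a point per library and a bar at the group mean (KO red, WT blue, 3 libraries each). The KO points lie below the WT points for 8 genes, MSMO1 shows the widest gap, and TM7SF2 overlaps, with KO library 3 at 2.61 CPM.

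The steps that make and close the ring came first. Gene positions are given in GRCh38.p14. SQLE (chromosome 8, 124998505 to 125022283), squalene monooxygenase, which adds the oxygen that commits squalene to sterols, had 75.8, 82.6 and 81.1 CPM in the KO libraries, against 389, 397 and 393 CPM in the WT libraries. The groups lay far apart and each was tight, with coefficients of variation of 4.49% in KO and 0.966% in WT. SQLE fell to 20.3% of the WT level (log2 fold change -2.30, SE 0.053, edgeR adjusted p = 3.07e-14). LSS (chromosome 21, 46188446 to 46228774), lanosterol synthase, which folds the oxidised squalene into lanosterol, had 52.1, 48.1 and 46.3 CPM in KO and 177, 163 and 175 CPM in WT. It fell to 28.4% of WT (log2 -1.81, SE 0.061, edgeR adjusted p = 1.65e-12), a smaller fall than that of SQLE, since their 95% intervals (-1.94 to -1.68 for LSS, -2.41 to -2.19 for SQLE) did not meet.

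CYP51A1 and TM7SF2, which act next on lanosterol, behaved differently. CYP51A1 (chromosome 7, 92112153 to 92134803), the cytochrome P450 that removes a methyl group from lanosterol, had 105, 110 and 123 CPM in the KO libraries, against 430, 439 and 442 CPM in the WT libraries. It fell to 25.7% of WT (log2 -1.96, SE 0.061, edgeR adjusted p = 7.42e-13) with no overlap. GENCODE lists 3 pseudogenes named after CYP51A1, none of them in the count table, and RefSeq places an antisense gene over a part of its locus, so a part of its reads could belong elsewhere.

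TM7SF2 (chromosome 11, 65111872 to 65116230), a sterol reductase that removes the double bond left by CYP51A1, was the weakest expressed member and the one exception. It had 293, 240 and 83 counts in the KO libraries, against 256, 313 and 232 in the WT libraries. Scaled, these were 6.12, 6.58 and 2.61 CPM in KO and 6.73, 7.18 and 6.38 CPM in WT. KO libraries 1 and 2 lay near the WT values and KO library 3 lay far below both, at 0.414 times the rate of the other KO libraries (exact 95% interval 0.324 to 0.522, which covers counting error only). The log2 fold change of -0.39 (95% interval -1.07 to 0.28, edgeR adjusted p = 0.247) therefore comes with an interval that reaches from a fall of over 2-fold to a small rise. Without KO library 3 it was -0.14 (adjusted p = 0.386). In FPKM, which use the library totals alone, KO libraries 1 and 2 (4.28 and 4.62) stood above all 3 WT libraries (3.97, 4.26 and 3.80).

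MSMO1 and NSDHL belong to the complex that strips the next methyl groups from the ring, and they marked the extremes among the called members. MSMO1 (chromosome 4, 165327669 to 165343164), the methylsterol monooxygenase that starts this removal, had 57.0, 61.6 and 63.1 CPM in the KO libraries, against 673, 733 and 716 CPM in the WT libraries. It fell to 8.56% of WT, or 11.7-fold (log2 -3.55, SE 0.062, edgeR adjusted p = 2.53e-15), and 0.838% of tested genes had a log2 fold change as low or lower. NSDHL (chromosome X, 152831063 to 152869729), the dehydrogenase that follows it on the same carbon, had 26.6, 22.2 and 24.1 CPM in KO and 34.3, 34.2 and 33.5 CPM in WT. The NSDHL groups were separate but close: it fell to 71.4% of WT (log2 -0.48, SE 0.079, edgeR adjusted p = 5.15e-05), and 28.9% of tested genes had a log2 fold change as low or lower. With library size alone the NSDHL value was -0.26 (adjusted p = 0.009), still lower in KO.

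The last 3 genes set the passage through 7-dehydrocholesterol, and all fell. EBP (chromosome X, 48521808 to 48528716), the sterol isomerase that shifts the ring double bond, had 12.1, 10.9 and 11.8 CPM in the KO libraries, against 65.3, 59.2 and 59.3 CPM in the WT libraries. It fell to 18.9% of WT (log2 -2.40, SE 0.077, edgeR adjusted p = 1.04e-12). SC5D (chromosome 11, 121292771 to 121313410), the desaturase that forms 7-dehydrocholesterol from lathosterol, had 42.3, 48.3 and 46.9 CPM in KO and 116, 127 and 122 CPM in WT. Its fall to 37.8% of WT (log2 -1.41, SE 0.064, edgeR adjusted p = 4.46e-11) was the smallest of these 3 genes, with no overlap between groups. DHCR7 (chromosome 11, 71427287 to 71449043), the reductase that turns 7-dehydrocholesterol into cholesterol, had 100, 94.1 and 116 CPM in KO and 384, 378 and 381 CPM in WT. It fell to 27.1% of WT (log2 -1.88, SE 0.068, edgeR adjusted p = 5.27e-12), its KO libraries spreading more (coefficient of variation 10.9%) than its WT libraries (0.844%). A divergent transcript overlaps the DHCR7 locus, and 2 genes, LOC124905045 and SNORD159, overlap the LSS locus.

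Ordered by size, the changes of the called members differed in part beyond their 95% intervals, while the interval of TM7SF2 (-1.07 to 0.28) covered that of NSDHL. MSMO1 stood alone at -3.55 (95% interval -3.68 to -3.41). EBP and SQLE followed at -2.40 and -2.30 with overlapping intervals, then CYP51A1, DHCR7 and LSS at -1.96, -1.88 and -1.81, whose intervals overlapped each other. SC5D at -1.41 lay outside the intervals of all those, and NSDHL at -0.48 lay apart from SC5D. The order did not follow the order of the pathway. Members with a higher WT level tended to fall more (Spearman's rho -0.883 between mean WT FPKM and log2 fold change, 9 genes), a description only, since both measures use the WT libraries.

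**Figure D2:**
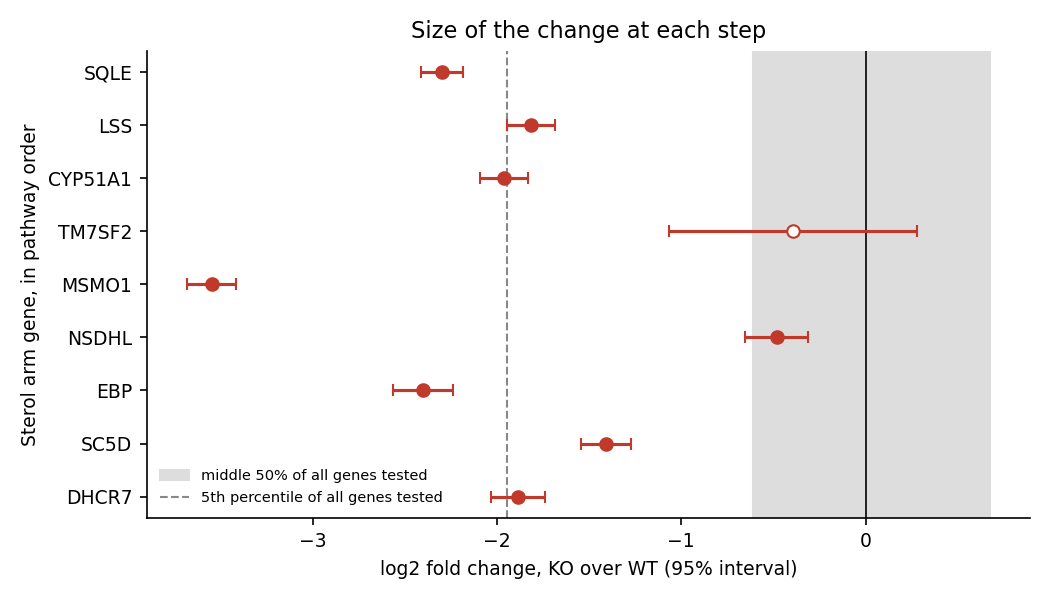
log2 fold change of each member, KO over WT, from edgeR with 95% intervals, in pathway order; filled points were called at an adjusted p under 0.05 and the open point was not. The grey band is the middle 50% of all genes tested (-0.61 to 0.67) and the dashed line the 5th percentile (-1.95); NSDHL and TM7SF2 lie in the band.

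Because the steps fell unequally, the make-up of the arm changed. The authors' FPKM, which divide by a fixed length per gene, summed to 199 ± 2.66 over the 9 genes in KO and to 847 ± 14.9 in WT. MSMO1 supplied 15.3 ± 0.585% of this sum in KO and 36.1 ± 1.09% in WT, so the most abundant member of WT cells ranked 4 in KO. DHCR7 ranked 1 in KO with 20.9 ± 1.55% of the sum, and CYP51A1 ranked 2 with 19.9 ± 0.948%, values that did not differ beyond their spread. In WT, SQLE (16.9 ± 0.0923%), CYP51A1 (15.6 ± 0.107%) and DHCR7 (15.5 ± 0.339%) followed MSMO1, and CYP51A1 and DHCR7 did not differ beyond their spread. The shares of SQLE overlapped, at 17.1 ± 0.816% in KO and 16.9% in WT. The same held for EBP, at 5.44 ± 0.318% in KO and 5.79 ± 0.407% in WT. NSDHL took 8.27 ± 0.842% in KO and 2.33 ± 0.0506% in WT. LSS took 7.80 ± 0.701% in KO and 5.51 ± 0.306% in WT, and SC5D took 3.57 ± 0.239% in KO and 1.90 ± 0.0627% in WT. TM7SF2 was the least abundant in both groups, at 2.18, 2.34 and 0.873% in the KO libraries and 0.478, 0.497 and 0.445% in the WT libraries. Shares of a sum show unequal change and not a rise of any member.

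**Figure D3:**
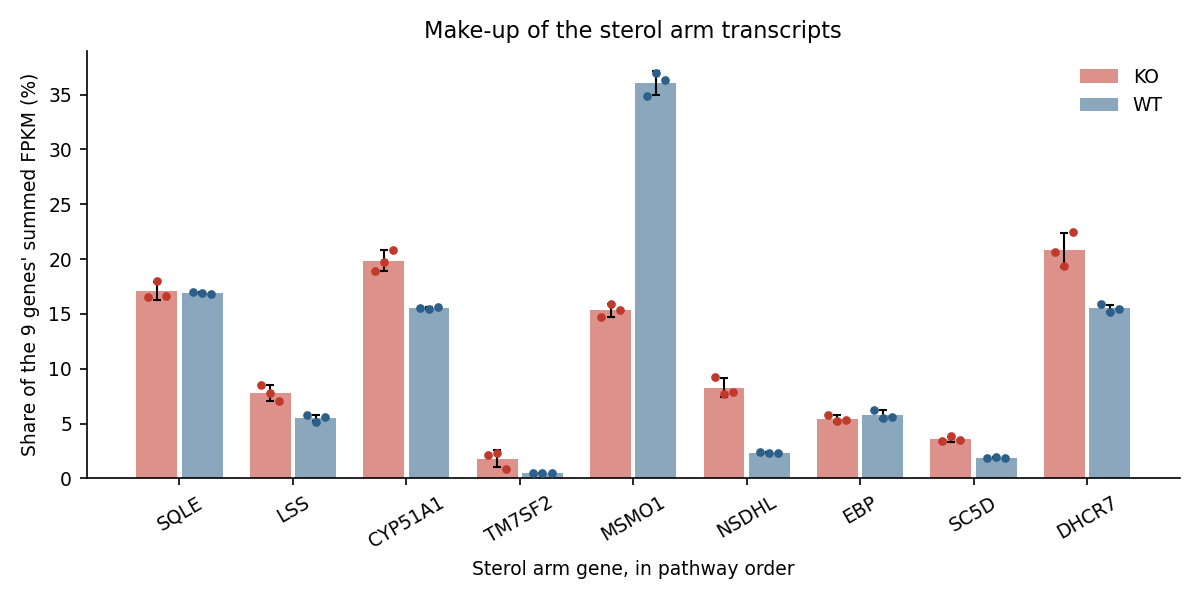
Share of each gene in the summed FPKM of the 9 sterol arm genes, in percent, as group means with SD and a point per library (KO left in red, WT right in blue, 3 libraries each). The MSMO1 bar stands at 15.3% in KO and 36.1% in WT, and the NSDHL bar at 8.27% in KO and 2.33% in WT.

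Ratios within a library, which do not depend on scaling between libraries, were taken for 3 pairs of genes. The log2 ratio of EBP to DHCR7 FPKM was -1.83, -1.90 and -2.08 in the KO libraries, against -1.34, -1.46 and -1.47 in the WT libraries. It was lower in 3 of 3 KO libraries, by a difference of means of -0.51 (2-sided exact permutation test, p = 0.10, p = 0.15 adjusted over the 3 ratios). The log2 ratio of SC5D to DHCR7 moved the other way, at -2.62, -2.34 and -2.68 in the KO libraries and -3.11, -2.95 and -3.02 in the WT libraries. It was higher in 3 of 3 KO libraries, by 0.48 (exact permutation p = 0.10, adjusted p = 0.15). With 3 against 3 libraries this test cannot go below 0.10, so neither difference could pass 0.05. EBP and SC5D thus stood on opposite sides of DHCR7 in the size of their fall.

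The third ratio compared the enzymes that can serve the same reductase step. LBR, the lamin B receptor, also reduces the sterol double bond that TM7SF2 acts on, and it fell to 44.4 ± 3.62 CPM in KO, against 77.2 ± 2.99 CPM in WT (log2 -0.80, SE 0.068, edgeR adjusted p = 5.19e-08). The log2 ratio of TM7SF2 to LBR was -1.54, -1.56 and -2.66 in the KO libraries and -2.18, -2.18 and -2.25 in the WT libraries, so the groups overlapped (difference 0.28, exact permutation p = 0.40, adjusted p = 0.40). Without KO library 3 the difference was 0.65.

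**Figure D4:**
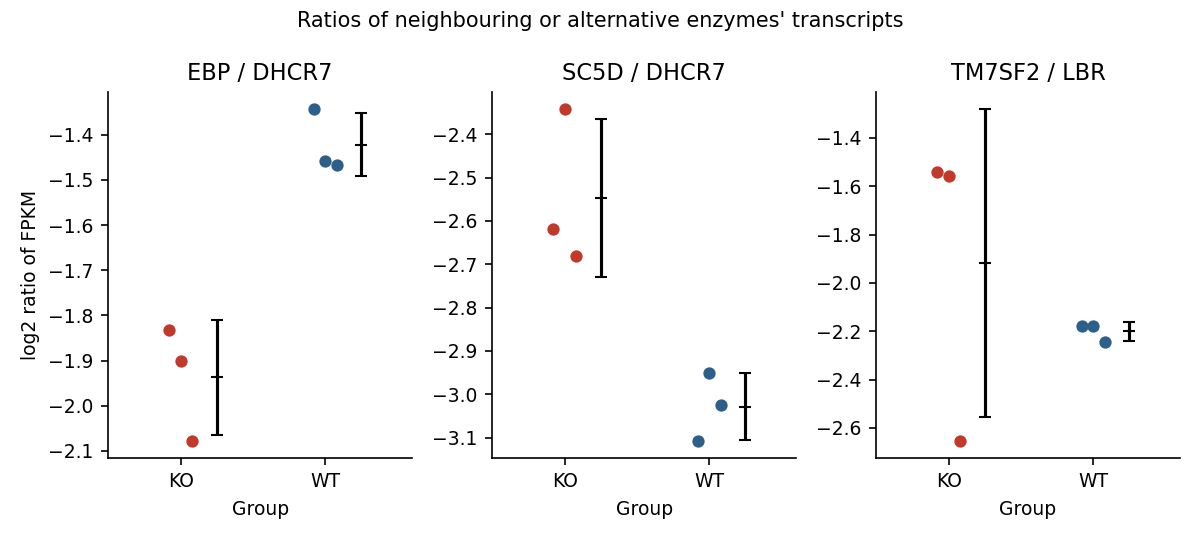
log2 ratio of FPKM within each library for EBP over DHCR7, SC5D over DHCR7 and TM7SF2 over LBR, with a point per library and the mean with SD at its right (KO red, WT blue, 3 libraries each). EBP over DHCR7 is lower in every KO library, SC5D over DHCR7 is higher in every KO library, and TM7SF2 over LBR is spread by KO library 3.

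Of 5 further enzymes and scaffold genes of the sterol arm, 4 were called lower and 1 higher (median log2 -1.76), where 36.3% of all tested genes were called lower and 40.0% higher. FDFT1, which makes squalene, fell to 56.6 ± 4.03 CPM in KO, against 352 ± 7.26 CPM in WT (log2 -2.64). HSD17B7, the ketone reductase that works with MSMO1 and NSDHL, had 3.31 ± 0.528 CPM in KO and 35.5 ± 1.55 CPM in WT (log2 -3.42), a fall nearly as deep as that of MSMO1. HSD17B7 has 2 named pseudogenes in GENCODE that the count table does not list, so its reads are uncertain. The same limit holds for FDPS, with 8 such pseudogenes, and for CYB5A, with 2, whose values are given below. ERG28, the scaffold of that complex, had 16.1 CPM in KO and 54.6 CPM in WT (log2 -1.76). Of MSMO1, NSDHL, HSD17B7 and ERG28, the 4 genes of the demethylation complex, NSDHL had the smallest log2 fold change. FAXDC2, a relative of the sterol oxidases with little RNA here (1.03 CPM in KO and 0.544 CPM in WT), was called higher (log2 0.92, adjusted p = 0.041), a call lost under 7 of the 14 other settings in which it was tested.

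Of the electron donors and other partners of these enzymes, 3 of 6 were called lower and 3 higher (median log2 0.00). These shares were near the 36.3% and 40.0% of all tested genes, so the counts say nothing particular of this list. POR, the reductase that serves CYP51A1 and SQLE, had 135, 132 and 136 CPM in the KO libraries, against 69.7, 64.8 and 66.7 CPM in the WT libraries. POR therefore rose (log2 1.01, SE 0.053, edgeR adjusted p = 2.17e-10) where its clients fell. CYB5B, an outer mitochondrial cytochrome b5, rose to 86.6 ± 9.20 CPM in KO, against 45.0 ± 1.07 CPM in WT (log2 0.95), and CYB5R3, the reductase of cytochrome b5, rose slightly (log2 0.22, adjusted p = 0.0039). The CYB5R3 value was 0.12 without KO library 3 (adjusted p = 0.0211) and 0.44 with library size alone (adjusted p = 5.33e-06). CYB5A, the cytochrome b5 of the endoplasmic reticulum, fell by 0.48 on the log2 scale and PGRMC1, a haem protein that binds CYP51A1, fell by 0.22. With library size alone neither was called (log2 -0.25, adjusted p = 0.159 for CYB5A, and log2 0.01, adjusted p = 0.929 for PGRMC1). PGRMC2, a related haem protein, had 50.3 CPM in KO and 114 CPM in WT (log2 -1.18).

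Of 8 mevalonate arm genes, upstream of squalene, 7 were called lower and 1 higher, with a median log2 of -2.75, and 7 were at least 2-fold lower, beside 36.3% lower, 40.0% higher and 15.5% at least 2-fold lower among all tested genes. MVD, FDPS, IDI1 and HMGCS1, which act between acetyl units and squalene, changed by -3.40, -2.82, -2.77 and -2.73 on the log2 scale. PMVK, a kinase of the same arm, was higher, with 6.54 ± 1.44 CPM in KO and 3.83 ± 0.412 CPM in WT. Of 11 genes of sterol sensing and uptake 9 were called lower and 2 higher (median log2 -0.74), against the same 36.3% and 40.0%. At least 2-fold lower were 4 of the 11, beside 15.5% of all tested genes. INSIG1, which holds the SREBP complex back, changed by -3.20, SREBF2, which encodes SREBP2, by -1.81, STARD4, a cytosolic sterol carrier, by -2.58 and INSIG2, a relative of INSIG1, by -0.99. SREBF1, the gene of the sister factor SREBP1, and MBTPS1, a protease that releases both factors, were higher (log2 0.68 and 0.55). SCAP, the escort of the SREBPs, and MBTPS2, the second protease, were called lower with TMM but not with library size alone, where SCAP was at 0.06 (adjusted p = 0.227) and MBTPS2 at -0.09 (adjusted p = 0.326). Neither was called with limma on FPKM. With upper quartile scaling SCAP was not called either (log2 -0.11, edgeR adjusted p = 0.0587).

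Of 11 genes listed under sterol esterification, oxysterols and efflux, 6 were too low to test, among them SOAT2, CH25H and CYP7B1 with 0 counts in every library. Of the 5 tested, 1 was called lower, 2 were called higher and 2 were not called, shares not above the 36.3% lower and 40.0% higher of all tested genes. SOAT1, which esterifies cholesterol for storage, rose to 107 ± 4.54 CPM in KO, against 62.7 ± 1.36 CPM in WT (log2 0.76), and MYLIP, a ubiquitin ligase, rose by 0.94 on the log2 scale. ABCA1, the cholesterol exporter, fell to 8.25 ± 0.751 CPM in KO, against 28.5 ± 1.45 CPM in WT (log2 -1.79). NR1H3, a liver X receptor, had a log2 fold change of -0.28 (edgeR adjusted p = 0.119).

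**Figure D5:**
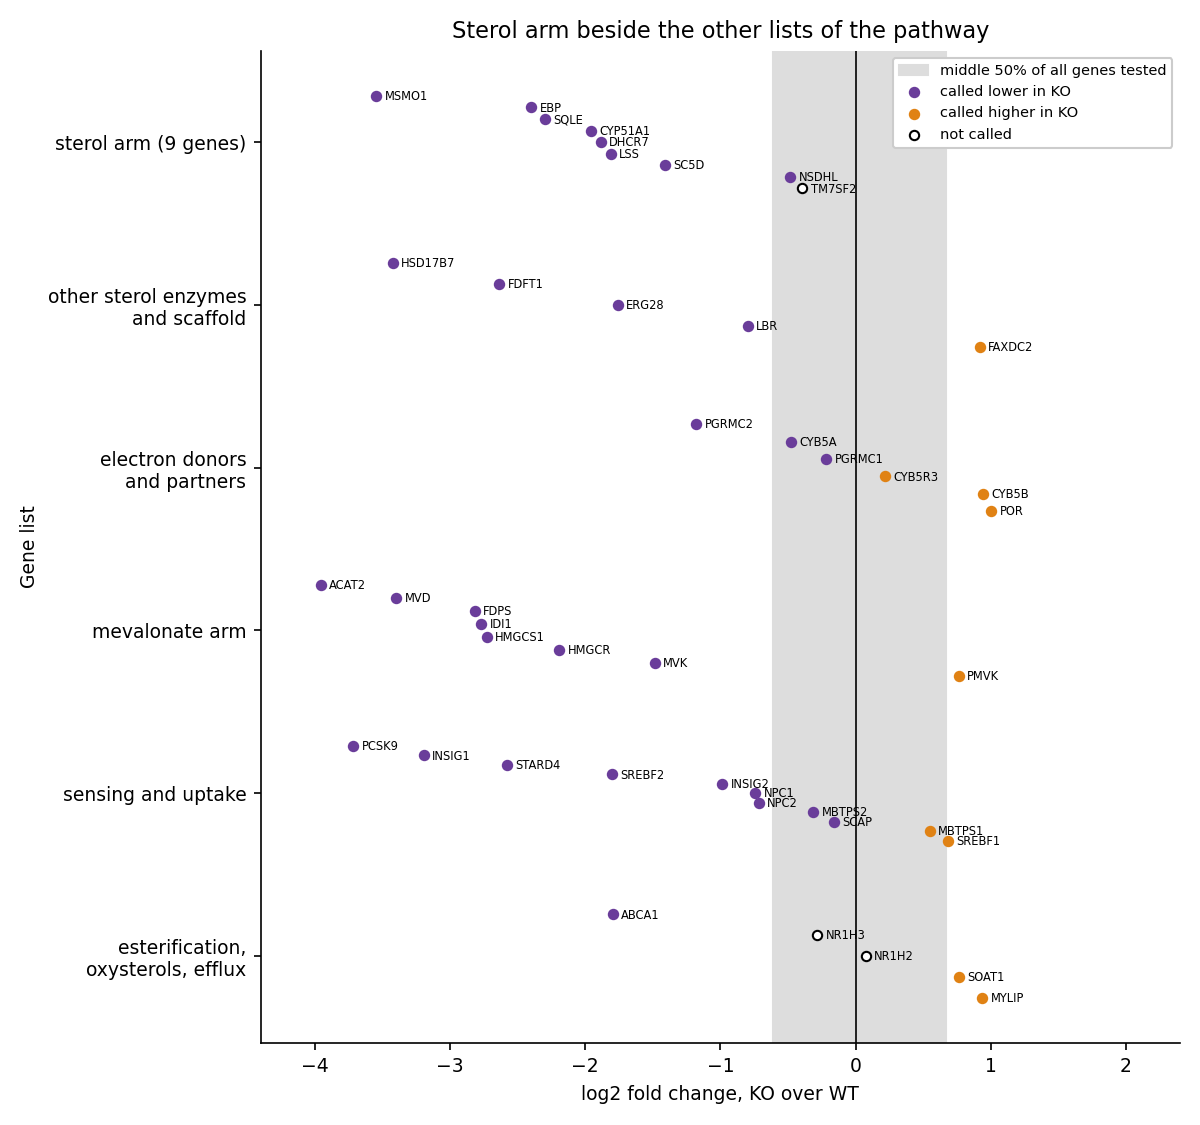
log2 fold change, KO over WT, of the tested genes of the sterol arm and of 5 neighbouring lists, with purple for genes called lower, orange for genes called higher and open points for genes not called. The grey band is the middle 50% of all genes tested (-0.61 to 0.67); the sterol arm and mevalonate arm lie mostly left of it, while electron donors lie on both sides of 0.

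Among genes outside these lists with a mean of at least 5 CPM, those nearest to the mean profile of the 9 members over the 6 libraries were IGF2BP2, FAM117B, TTC7A, DHTKD1 and FBXL5. Nearness was the Euclidean distance between centred log2 CPM profiles, 0.0449 for IGF2BP2 and 0.0755 for FBXL5. LSS was the nearest member itself at 0.134, and MSMO1 the farthest at 2.13. IGF2BP2, an RNA-binding protein, had 190 ± 3.95 CPM in KO and 662 ± 11.1 CPM in WT. With 2 groups of 3 libraries such likeness reflects little more than a fold change of similar size.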

How the data were processed

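Polyadenylated RNA of 3 KO and 3 WT libraries was analysed from a deposited table of read counts per gene symbol and a deposited table of FPKM values. Per the submitters' processing notes, fastp, HISAT and the build hg38 were used, with no versions. Which tool counted the reads, and with which annotation and strand setting, is not given in the sources used here. The authors' FPKM equal the count over the library total and a fixed length per gene (largest relative deviation 4e-14), so they add no independent measurement. Counts were tested with edgeR 4.0.16 in R 4.3.3 (TMM, filterByExpr, robust quasi-likelihood F-test, group as the only term), adjusted by Benjamini-Hochberg over 13249 genes at 0.05. Standard errors are the log2 fold change over the root of F. The test was checked on data simulated with the same dispersion for all genes and no deviant library, so the check does not cover a library such as KO library 3. Ratios of FPKM used no pseudocount. The members and lists were chosen with earlier results of these data known. All members were named, with the 4 smallest p-values of each other list and the 5 genes nearest in profile; 2 genes of the lists as first drawn up are not reported here and were left out of the list counts. Alternatives used limma 3.58.1 on log2(FPKM + 1) and log2(FPKM + 0.1), DESeq2 1.42.0, other scalings and filters, a replicate block and each library left out. Gene positions and promoters are from RefSeq (GRCh38.p14) and pseudogene names from GENCODE.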

Additional observations from a re-analysis of the deposited data

How the results depend on the processing

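All 8 called members kept their direction and their call under each of the 15 other settings, and TM7SF2 was called under none of them (log2 -0.63 to -0.14). MSMO1 ranged from -3.62 to -3.28, SQLE from -2.36 to -2.05, EBP from -2.46 to -2.08 and NSDHL from -0.57 to -0.25. Genes changed over the whole table numbered 10116, and 9687 to 10676 with 1 library left out. The lower calls among electron donors and partners were 3, and 1 with library size alone, with limma on log2(FPKM + 1) and with limma on log2(FPKM + 0.1), which scale by library totals. Those among sensing and uptake genes were 9, with 8 under upper quartile scaling and 7 under library size alone and each limma fit. The higher call among other sterol arm enzymes, FAXDC2, was 1, and 0 with no filter, when 3 libraries had to reach 1 CPM (which left FAXDC2 untested), with the replicate block and with DESeq2, and 0 to 1 with 1 library left out (0 without KO library 1 or 2 or WT library 1 or 2); the cause was not tested. The lower calls among esterification, oxysterol and efflux genes were 1, and 1 to 2 with 1 library left out, NR1H3 being called without WT library 2. Replicate numbers did not pair the libraries (correlations of same-numbered deviations 0.003 to 0.004), and with the replicate block 9986 genes changed and 8 members were lower. With 1 library left out, the difference in log2 ratio ranged from -0.57 to -0.44 for EBP to DHCR7, from 0.38 to 0.55 for SC5D to DHCR7 and from 0.09 to 0.65 for TM7SF2 to LBR. TM7SF2 had the fewest counts of the members, 83 to 313 per library, and the spread of its KO libraries, with KO library 3 at 0.414 times the rate of the others (counting interval 0.324 to 0.522), was wider than counting error.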
